A study of Mus musculus with 3 samples.

Results

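The genes described here write or erase 5-methylcytosine in DNA: the methyltransferases Dnmt1, Dnmt3a and Dnmt3b, their cofactor Dnmt3l, the maintenance factor Uhrf1 and the dioxygenases Tet1, Tet2 and Tet3. They are 8 of 21938 protein-coding genes, and every CCGG site in or within 10 kb of them (GENCODE M21, GRCm38) was taken. The reference genome holds 865 CCGG motifs in these windows, of 1630167 in all. A total of 623 sites was listed in at least 1 of the 3 libraries, 439 were listed in all 3, and 252 motifs were listed in none. Each window was divided into promoter (1 kb on each side of every start site of the GENCODE basic transcripts), gene body and flanks. Starts annotated only for other transcripts did not define promoters.

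The cells were E14Tg2A, an established line of mouse embryonic stem cells (ESCs), and 1 MethylRAD library was made from each of 3 states. The undifferentiated cells were kept with leukemia inhibitory factor (LIF). The untreated cells were differentiated for 7 days by removing LIF and adding retinoic acid. The treated cells were differentiated in the same way with 3 mM pargyline, an inhibitor of the histone demethylase LSD1. The day and the dose come from the study's methods, and the labels give neither. The lists of both differentiated samples carry the tag RA4, which the sources used here do not explain, so the 7 days and the name day 7 used below rest on the methods alone. All values come from 1 cell line, no expression was measured, and the state of the cells could therefore not be checked with marker genes. With 1 library per state, no difference was tested, and all intervals below are 95% intervals that cover counting error only.

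DNMT3A and DNMT3B place methyl groups on unmethylated CpGs, and DNMT3L, which has no catalytic activity of its own, stimulates them. UHRF1 binds hemimethylated CpGs after replication and brings DNMT1 there, so that the pattern is copied to the new strand. The TET enzymes oxidise 5-methylcytosine to 5-hydroxymethylcytosine and further forms, which starts demethylation. In ESCs Tet1, Tet2, Dnmt3b and Dnmt3l are known to be active, and CpG-dense promoters are usually free of methylation.

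MethylRAD uses FspEI, an enzyme that cuts on both sides of a methylated CCGG and releases a short fragment, so a methylated site yields reads and an unmethylated one yields none. FspEI does not separate 5-methylcytosine from 5-hydroxymethylcytosine. A site with fewer than 5 reads has no row in the deposited lists, and an unlisted site can have had up to 4 reads. The bounds given below put 4 reads at each site that 1 library does not list and another does, and motifs that no library lists stay out of both sums. In DNA from many cells, methylation in fewer cells and at fewer copies per cell cannot be told apart. The libraries held 31614085, 36654600 and 25767119 CCGG reads (undifferentiated, untreated, treated), with a median of 26, 30 and 23 reads per listed site. Reads were scaled to 10000000 CCGG reads of the library, at which the smallest listed count of 5 reads is 1.58, 1.36 and 1.94 scaled reads. Sequences of 30 bases around the sites on which the results turn follow, from GRCm38 on the plus strand, with the CCGG in capitals. The Tet2, Tet3, Dnmt3b and Dnmt3l promoter sites are shown because they were listed on day 7 and not in undifferentiated cells, the Dnmt3b flank site because it was the deepest of that flank on day 7, the Tet3 body sites because they had the largest ratios, the Uhrf1 sites because they were lower on day 7, and the Dnmt3a sites because they had the largest ratios in the other direction.
Tet2 promoter, chr3:133544997-133545026: actctgcagcaatCCGGcggcgccggggct
Tet2 promoter, chr3:133545006-133545035: caatccggcggcgCCGGggctctccccgcc
Tet3 promoter, chr6:83441461-83441490: ctgcttcggttctCCGGcctctggagatcc
Tet3 intron, chr6:83402495-83402524: taccagtttccctCCGGgttttttccgctt
Tet3 coding exon, chr6:83404452-83404481: agcagctctcaggCCGGgggcccctgccgt
Dnmt3b promoter, chr2:153649636-153649665: gcagcgatcggcgCCGGagattcgcgaacc
Dnmt3b upstream flank, chr2:153643688-153643717: tgggaattgaactCCGGtcattaggttttg
Dnmt3l promoter, chr10:78042989-78043018: tggccccactgtcCCGGgtcaggagccagg
Dnmt3a intron, chr12:3809442-3809471: tggcccagcctctCCGGtgttcgccaggag
Dnmt3a downstream flank, chr12:3918037-3918066: ccctggggacaagCCGGgcttcctgctgtt
Uhrf1 promoter, chr17:56302524-56302553: ttggcttcctcagCCGGaagtgcctctgtc
Uhrf1 promoter, chr17:56302851-56302880: gacagcttgctgaCCGGcagggtgggggtg

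Pooled over the 8 genes, promoter motifs were mostly unlisted and body motifs mostly listed. The promoters of Tet1 (6, 6 and 8 of 8 motifs) and Dnmt3l (5, 6 and 6 of 7) were mostly listed in every library. Of 160 promoter motifs, 12.5% (7.81 to 18.6%) were listed in undifferentiated cells, 20.6% (14.6 to 27.7%) in untreated cells and 23.8% (17.4 to 31.1%) in treated cells. Over the promoters of all protein-coding genes the shares were 15.97%, 21.7% and 25.5%. With a cutoff of 10 reads the shares of the 8 genes were 9.38%, 12.5% and 11.88%, so the order of the day 7 libraries depended on the cutoff. Of 536 motifs in the gene bodies, 70.5%, 72.0% and 72.8% were listed, against 66.5%, 67.0% and 66.9% over all gene bodies. Of 169 motifs in the flanks, 60.9%, 66.9% and 66.3% were listed, against 55%, 56.7% and 58.1% for all genes.

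CpG content separated the promoter motifs. Windows of 500 bases were classed by their CpG ratio and GC content. Of 79 promoter motifs in windows of high CpG content, none was listed in undifferentiated cells, which allows a share of up to 4.56%, 5 were listed in untreated cells and 6 in treated cells. Over all genes these shares were 2.06%, 7.81% and 9.43%. Of 55 motifs of intermediate CpG content, 5, 12 and 14 were listed, or 9.09%, 21.8% and 25.5%, beside 11.8%, 19.2% and 26.5% over all genes. Of 26 motifs of low CpG content, 15, 16 and 18 were listed. In all 3 classes and libraries the interval of the 8 genes included the share of all genes, as the plot of listed shares by CpG content shows.

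**Figure D1:**
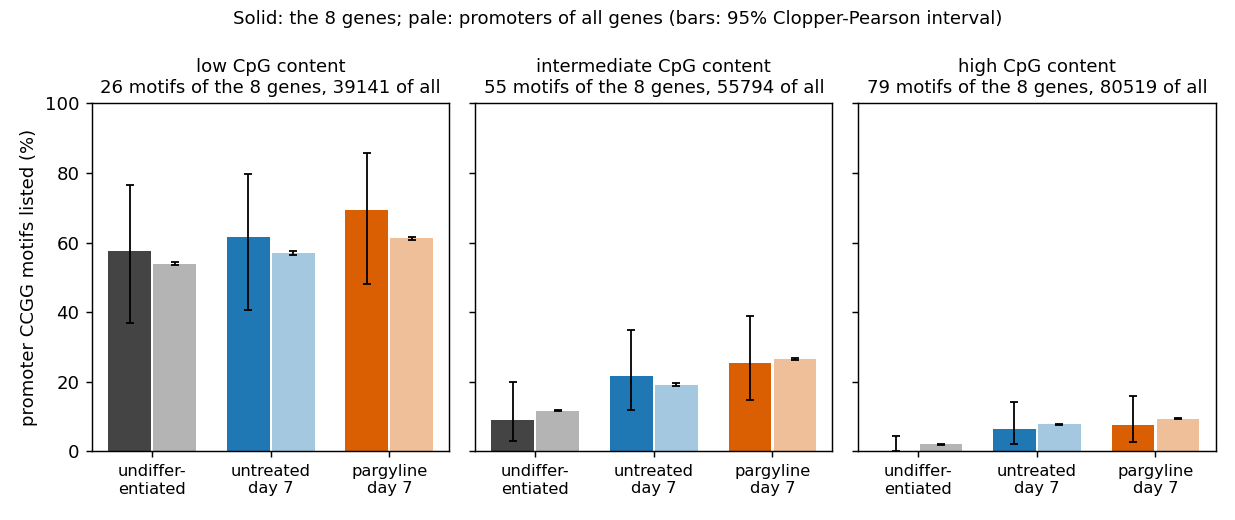
Share of promoter CCGG motifs listed, in percent, by CpG content of the window and by library. Solid bars are the 8 genes, pale bars the promoters of all genes, and error bars are 95% Clopper-Pearson intervals. Of the 79 motifs of high CpG content, 0, 5 and 6 were listed, and of the 26 of low CpG content, 15, 16 and 18.

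Summed over the 8 promoters, 541, 709 and 586 reads were counted. The scaled sum was 1.13-fold higher in untreated than in undifferentiated cells (log2 ratio 0.18, interval 0.01 to 0.34) and 1.33-fold higher in treated cells (log2 ratio 0.41, 0.24 to 0.58). Summed in the same way over the promoters of all protein-coding genes, the log2 ratios were 0.12 and 0.30. The medians of single promoters were 0.14 and 0.40. They cover the 10438 and 10591 promoters with reads in both libraries and at least 20 in 1. The direction of the summed promoters turned with the definition, since 1 kb upstream of the starts alone gave log2 ratios of -0.41 and -0.06, and scaling to all mapped reads gave -0.14 and -0.28. Scaling to mapped reads moved every log2 ratio by -0.32 (untreated minus undifferentiated), -0.69 (treated minus undifferentiated) and -0.38 (treated minus untreated), and all ratios below are on the CCGG scale. Summed over the gene bodies, the log2 ratios were -0.007 (-0.04 to 0.03) and -0.06 (-0.09 to -0.02), and over the flanks 0.12 (0.05 to 0.19) and 0.07 (-0.004 to 0.15). The 3 comparisons share libraries and are not independent of each other.

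**Figure D2:**
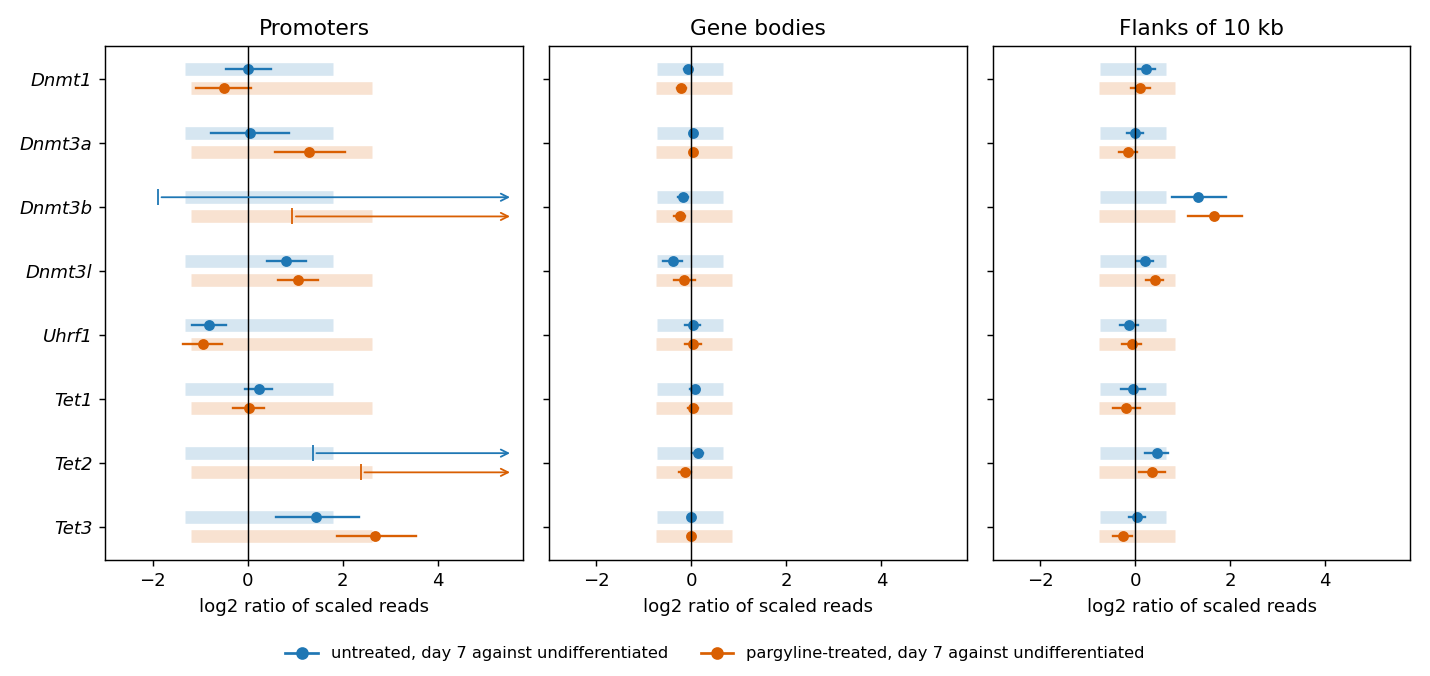
Log2 ratio of the summed scaled reads of each gene in its promoters, body and flanks, for untreated and treated cells against undifferentiated cells. Points carry 95% counting intervals. Pale bands span the 5th to 95th percentile of genes with reads in both libraries and at least 20 in 1. Arrows start at the value that 4 reads at each site unlisted in undifferentiated cells and listed in another library would give. The gene bodies sit close to 0, and the values far from 0 are those of promoters and of the Dnmt3b flanks.

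The promoter of Tet2 (chr3:133463679-133545139, minus strand) was listed on day 7 and not in undifferentiated cells. It has 15 motifs, of which 13 were listed in no library. Untreated and treated cells had 12 and 17 reads at a site 620 bases upstream of the start and the same counts at a site 9 bases further, whose 32-base fragment overlaps that of the first. Both sites lie in CpG-dense sequence, outside the basic transcripts of Tet2 and within 1 kb of the start of another annotated gene, Gm42567. If each of these 2 sites had 4 reads in undifferentiated cells, the sum of 24 reads in untreated cells was above them by a log2 ratio of 1.37 and the sum of 34 reads in treated cells by 2.38. Treated cells were 2.02-fold above untreated cells (log2 ratio 1.01, 0.21 to 1.83). With the overlapping pair counted once the interval was -0.14 to 2.21, and on the scale of mapped reads the log2 ratio was 0.64 (-0.16 to 1.45), so whether it exceeded the counting error depended on these choices.

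The body of Tet2 went in different directions in the day 7 libraries, by small amounts. It held 1133, 1442 and 841 reads at 56 motifs. The log2 ratio to undifferentiated cells was 0.13 (0.02 to 0.25) for untreated cells and -0.13 (-0.27 to -0.005) for treated cells, and scaling to mapped reads put both below undifferentiated cells (-0.18 and -0.83). The first interval included 0 with the median ratio scaling (-0.05 to 0.17) and the second with sites within 32 bases counted once (-0.24 to 0.02). An intron site at chr3:133539968 had 0, 31 and 18 reads, and one at chr3:133533719 had 0, 27 and 0 reads. The flanks held 230, 366 and 240 reads, log2 ratios of 0.46 (0.21 to 0.70) and 0.36 (0.09 to 0.62), the second of which turned to -0.34 with scaling to mapped reads. At 4 neighbouring sites downstream of Tet2, chosen after their values were seen, the counts were 9, 51 and 42, then 12, 47 and 24, then 31, 55 and 33, and nearest to the gene 0, 18 and 34. All 4 were higher in both day 7 libraries than in undifferentiated cells once scaled.

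Tet3 (chr6:83362373-83459084, minus strand) is known for its role in the zygote and in differentiated cells. Of its 29 promoter motifs 3, 7 and 7 were listed (10.3%, 24.1% and 24.1%), beside 15.97%, 21.7% and 25.5% over all genes. These Tet3 shares lay at the 47.6, 55.1 and 49.7 percentiles of all promoters. The reads lay around an inner start at chr6:83441675, with 13 motifs and 16, 50 and 77 reads. Of these motifs 3, 7 and 6 were listed. The largest single difference was a site 201 bases inside the transcript, with 0, 5 and 26 reads, and its neighbour 17 bases away had 0, 7 and 11. Windows of this start overlap the start of B230319C09Rik. The log2 ratio of this start was 1.43 (0.59 to 2.34) in untreated and 2.56 (1.77 to 3.44) in treated cells, and treated cells were above untreated cells by 1.13 (0.60 to 1.67). With 4 undifferentiated reads at each of 5 sites listed only in other libraries, this start had 0.26 (-0.39 to 0.92) and 1.39 (0.80 to 2.01). Over both starts of Tet3, 4 undifferentiated reads at each of the 6 sites listed only in other libraries would lower the values to 0.11 and 1.35. The outer start at chr6:83456392, with 16 motifs, had 0, 0 and 6 reads.

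The body of Tet3 was among the most densely listed, at 93, 93 and 95 of 114 motifs, and its sum of 3815, 4421 and 3094 reads differed by less than the counting error (log2 ratios -0.001, -0.06 to 0.06, and -0.007, -0.08 to 0.06). Single sites within it moved in both directions. An intron site at chr6:83402508 had 7, 67 and 61 reads, 8.26-fold and 10.7-fold above undifferentiated cells (log2 ratios 3.05, 1.92 to 4.41, and 3.42, 2.29 to 4.79). A coding exon site at chr6:83404465 had 8, 69 and 83 reads (log2 ratios 2.90 and 3.67). Between them, coding exon sites at chr6:83402709 and chr6:83403025 were lower on day 7, with 87, 57 and 30 reads and 95, 32 and 31 reads. The flanks of Tet3 held 538, 645 and 366 reads, with log2 ratios of 0.05 (-0.12 to 0.22) and -0.26 (-0.46 to -0.07). With flanks of 5 kb the second value was 0.07 (-0.15 to 0.29).

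**Figure D3:**
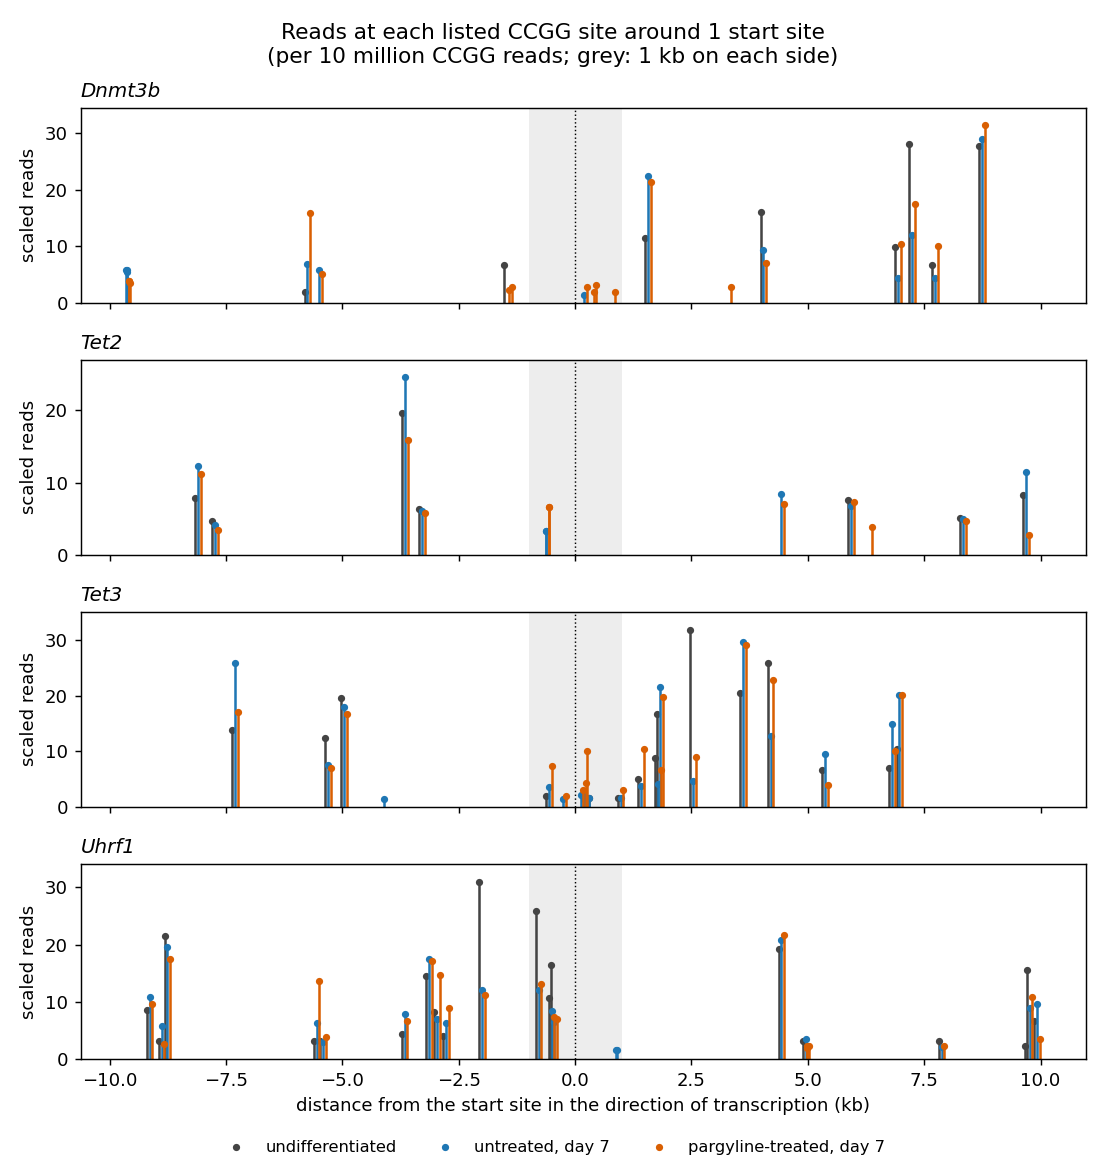
Scaled reads at each listed CCGG site within 10 kb of 1 start site of Dnmt3b, Tet2, Tet3 (inner start) and Uhrf1, by distance from the start in the direction of transcription. Lines and points stand for the 3 libraries and the grey band for 1 kb on each side. Around the Dnmt3b and Tet2 starts no undifferentiated reads stand in the grey band, and within 2 kb upstream of the Uhrf1 start the undifferentiated values are above those of both day 7 libraries.

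The basic transcripts of Tet1 (chr10:62804570-62908996, minus strand) start in sequence of low or intermediate CpG content, and there 6, 6 and 8 of 8 promoter motifs were listed, with 184, 250 and 152 reads. The log2 ratios were 0.23 (-0.05 to 0.51) and 0.02 (-0.30 to 0.34). They depended on the window, since 1 kb upstream of the starts alone gave -0.98 (-1.68 to -0.30) and -1.57 (-2.54 to -0.69). The start at chr10:62880014 had 112, 181 and 103 reads and the start at chr10:62899118 had 72, 69 and 49. The site at chr10:62879878, in a coding exon, had 40, 68 and 21 reads. A further pair of Tet1 starts, at chr10:62887324 and chr10:62887512, belongs to transcripts outside the basic set and lies in CpG-dense sequence, and it was added after its values were seen. Of 9 motifs around it, 0, 1 and 1 were listed, with 5 reads each. The Tet1 body held 1735, 2116 and 1447 reads (log2 ratios 0.07, -0.02 to 0.17, and 0.03, -0.07 to 0.14). A site in its 3' UTR at chr10:62812441 had 0, 14 and 28 reads, and a coding exon site at chr10:62818979 had 28, 0 and 0.

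Dnmt3b (chr2:153649450-153687730, plus strand) had the fewest promoter reads of the de novo methyltransferases. Its 22 promoter motifs held 0, 5 and 25 reads, at 0, 1 and 4 sites. The site 32 bases inside the transcript, in the 5' UTR, had 0, 5 and 7 reads, and the others had 5 to 8 reads in treated cells alone. Treated cells were 7.11-fold above untreated cells (log2 ratio 2.83, 1.42 to 4.57), or by 1.06 with 4 untreated reads at each of the 3 sites listed in treated cells alone. The counts are close to the listing limit, and Dnmt3bos, an antisense gene, shares these sites.

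The upstream flank of Dnmt3b was higher on day 7. Its flanks held 37, 108 and 96 reads at 12 motifs. The log2 ratios were 1.33 (0.78 to 1.91) and 1.67 (1.11 to 2.26). Both lay at the 99.2 percentile of gene flanks with reads in both libraries and at least 20 in 1, where the medians were -0.02 and -0.01. All 108 reads of untreated cells came from 5 sites between 5 and 10 kb upstream, a window chosen after its values were seen, which held 6 of the 37 reads of undifferentiated and 83 of the 96 reads of treated cells. One of them, at chr2:153643701, had 6, 25 and 41 reads and lies in a masked repeat, and its neighbour at chr2:153643958 had 0, 21 and 13. A cluster of 3 sites within 12 bases shares its fragments, and with such sites counted once the flank sums were 37, 67 and 77 and the log2 ratios 0.64 (0.04 to 1.26) and 1.35 (0.77 to 1.96). Within 5 kb the sums were lower on day 7, in treated cells by less than the counting error. The 2 listed sites 1 to 5 kb upstream had 21, 0 and 13 reads together, a treated log2 ratio of -0.40 (-1.52 to 0.67). Of these, 1 was lower in treated cells, the site 1477 bases upstream with 21, 0 and 6 reads. The flanks of 5 kb also had a log2 ratio of -0.40 in treated cells. The Dnmt3b body held 1413, 1452 and 972 reads, with log2 ratios of -0.17 (-0.28 to -0.07) and -0.25 (-0.36 to -0.13).

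Dnmt3a (chr12:3806007-3914443, plus strand) has 51 promoter motifs, of which 1, 2 and 6 were listed. At its first starts, 1 of 42 motifs was listed in each library, 969 bases upstream, with 25, 25 and 21 reads. At the inner start at chr12:3891728, which gives the shorter transcript, 9 motifs held 0, 5 and 29 reads. In treated cells 5 sites were listed there with 5 to 7 reads each, at or just above the listing limit. The log2 ratio of treated to untreated cells at this start was 3.04 (1.66 to 4.77), or 0.97 (0.11 to 1.86) with 4 untreated reads at each of the 4 sites listed in treated cells alone. Over all Dnmt3a promoters it was 1.25 (0.56 to 1.95), or 0.63 with 4 untreated reads at each site listed only in another library.

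The body of Dnmt3a held 3122, 3721 and 2621 reads, and the differences were within the counting error (log2 ratios 0.04, -0.03 to 0.11, and 0.04, -0.03 to 0.12). The 3 largest ratios below 1 between untreated and undifferentiated cells were at Dnmt3a. An intron site at chr12:3809455 had 62, 7 and 23 reads (log2 ratios -3.36 and -1.14), a site 3.61 kb downstream of the gene had 50, 6 and 5 (log2 ratios -3.27 and -3.03), and an intron site at chr12:3904013 had 44, 6 and 0. A coding exon site at chr12:3896085 had 50, 33 and 0 reads, the deepest site listed in untreated and not in treated cells.

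Dnmt3l (chr10:78041947-78063622, plus strand) was higher at its first start on day 7. At chr10:78042287, 3 motifs held 34, 88 and 94 reads, with log2 ratios of 1.16 (0.57 to 1.77) and 1.76 (1.18 to 2.37). The site 715 bases inside had 0, 17 and 30 reads, and the sites at 182 and 363 bases had 15, 44 and 34 and 19, 27 and 30. These sites also lie in Aire, a neighbouring gene, and those at 363 and 715 bases lie within 1 kb of a start of Aire. The start at chr10:78049842 had 43, 68 and 36 reads (log2 ratios 0.45, -0.12 to 1.03, and 0.04, -0.64 to 0.71), and the start at chr10:78055335 has no CCGG motif. Over all Dnmt3l promoters the log2 ratios were 0.81 (0.40 to 1.22) and 1.05 (0.63 to 1.48). They lay at the 79.2 and 72.1 percentiles of promoters with reads in both libraries and at least 20 in 1. Of those promoters 15.7% and 29.2% were at least 2-fold higher. For Dnmt3l, 1 kb upstream of the starts alone gave log2 ratios of -0.44 (-1.68 to 0.78) and 0.07 (-1.17 to 1.29), so the higher values rest on sites inside the transcripts. The body of Dnmt3l went the other way in untreated cells, with 429, 379 and 316 reads and log2 ratios of -0.39 (-0.60 to -0.19) and -0.15 (-0.36 to 0.07). Its flanks held 522, 698 and 566 reads (log2 ratios 0.21, 0.04 to 0.37, and 0.41, 0.24 to 0.59), which turned to -0.06 and -0.18 with flanks of 5 kb and to -0.11 and -0.28 with scaling to mapped reads.

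With 1 kb on each side of the starts, Uhrf1 (chr17:56303321-56323486, plus strand) was the gene whose promoter was lower on day 7 in both libraries. With 1 kb upstream alone, Tet1 was lower in both as well, by the ratios given above. The 16 promoter motifs of Uhrf1 held 168, 111 and 71 reads, with log2 ratios of -0.81 (-1.17 to -0.46) and -0.95 (-1.37 to -0.54). These values were at the 11.3 and 7.18 percentiles of the promoters with reads in both libraries and at least 20 in 1. The reads of undifferentiated cells lay upstream of the first start, in CpG-poor sequence. The site 784 bases upstream had 82, 44 and 34 reads, the site at 506 bases had 34, 31 and 19, and the site at 457 bases had 52, 24 and 18. Together with a flank site 2004 bases upstream, which had 98, 44 and 29 reads, these were the 4 listed sites nearest before the start, and all 4 were lower in both day 7 libraries. Their sums of 266, 143 and 100 reads gave log2 ratios of -1.11 (-1.41 to -0.81) and -1.12 (-1.46 to -0.78), in a window chosen after its values were seen. The other 9 listed sites further upstream, within 10 kb, did not share this direction, with 224, 309 and 244 reads and log2 ratios of 0.25 (-0.002 to 0.51) and 0.42 (0.15 to 0.69). Inside CpG-dense sequence, a pair of sites 29 bases apart had 0, 6 and 0 reads each.

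The body of Uhrf1 held 636, 752 and 528 reads (log2 ratios 0.03, -0.13 to 0.18, and 0.03, -0.14 to 0.20). A coding exon site at chr17:56318339 had 27, 12 and 50 reads, the largest ratio of treated to untreated cells after the Tet3 promoter site (log2 ratio 2.57, 1.64 to 3.61).

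Dnmt1 (chr9:20907209-20959888, minus strand) was nearly unlisted at the starts that somatic cells use. At the starts between chr9:20952605 and chr9:20952979, 10 motifs held 0, 14 and 0 reads, from sites of 8 and 6 reads in untreated cells. At the outer start at chr9:20959888, both motifs were listed in every library, with 71, 69 and 41 reads (log2 ratios -0.25, -0.75 to 0.24, and -0.50, -1.09 to 0.08). The body held 2215, 2447 and 1552 reads, with log2 ratios of -0.07 (-0.15 to 0.01) and -0.22 (-0.31 to -0.12). Intron sites at chr9:20929233 and chr9:20930416 were lower on day 7, with 68, 11 and 7 reads and 52, 18 and 5 reads.

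**Figure D4:**
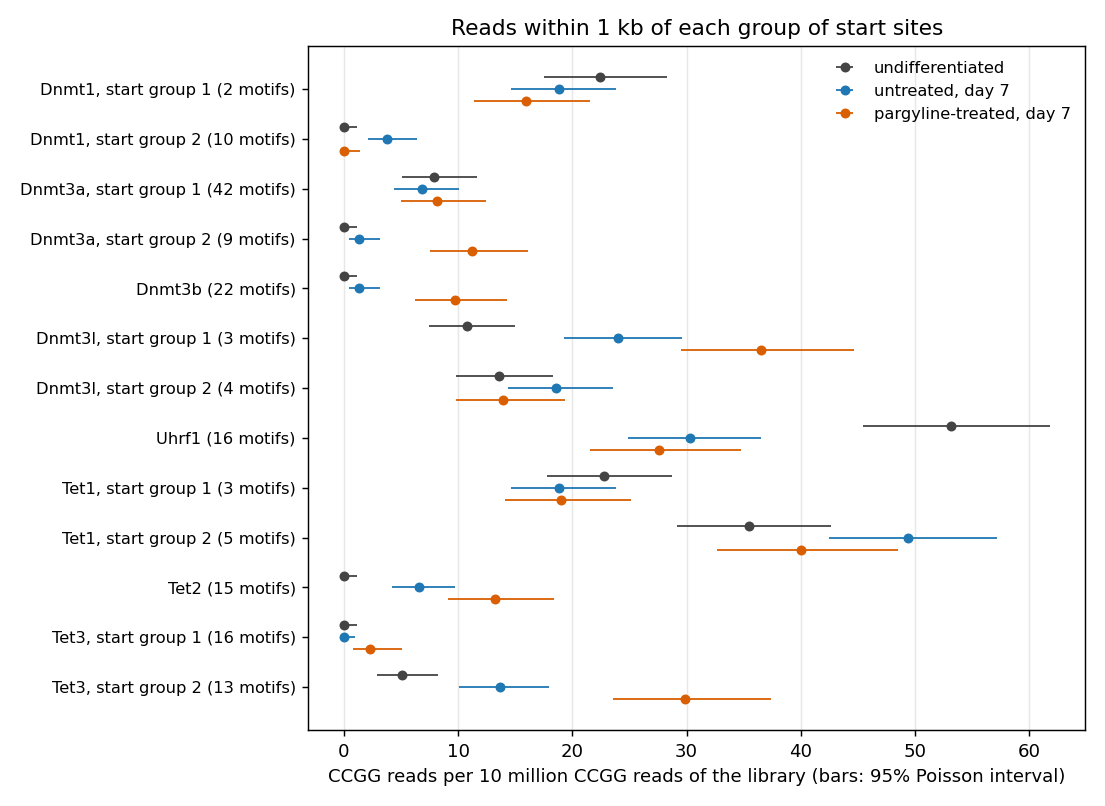
Scaled CCGG reads (per 10000000 CCGG reads) within 1 kb of each group of start sites, numbered in the direction of transcription, for the 3 libraries. Error bars are 95% Poisson intervals, and an unlisted site counts as 0. The undifferentiated points are at 0 for Tet2, Dnmt3b, the second group of Dnmt3a and of Dnmt1 and the first of Tet3, and the Uhrf1 point is the highest of all undifferentiated points.

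The gene bodies were compared per CCGG motif. In undifferentiated cells the scaled reads per CCGG motif were 11.5 (10.9 to 12.1) for Dnmt3b, 10.6 (10.3 to 10.9) for Tet3, 9.23 (8.91 to 9.56) for Dnmt3a and 8.87 (8.5 to 9.25) for Dnmt1. Dnmt3l followed at 7.98 (7.24 to 8.77), Uhrf1 at 6.71 (6.19 to 7.25), Tet2 at 6.40 (6.03 to 6.78) and Tet1 at 5.84 (5.57 to 6.12). Only Tet3 and Dnmt3a, among neighbours in this order, had intervals that did not overlap. On day 7 Tet3 stood above Dnmt3b, at 10.6 and 10.5 against 10.2 and 9.67 scaled reads per motif, with overlapping intervals in both day 7 libraries. Among all gene bodies, Tet3 lay at the 80.5, 82.5 and 84.7 percentiles, Dnmt3b at 86.3, 78.8 and 76.97, and Tet1 at 31.9, 35.3 and 32.2. Within the 8 bodies, coding exons held 10.4, 9.71 and 9.06 scaled reads per motif, 3' UTRs 9.86, 10.9 and 10.4, and introns 7.88, 7.81 and 7.58.

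Site by site, the 8 genes moved about as often as the genome. Sites listed in both libraries, with at least 20 reads in the deeper one, were called at a 2-fold scaled ratio. Untreated against undifferentiated cells, 62 of 379 sites (16.4%) were higher, beside 16.2% of all CCGG sites, and 53 (13.98%) were lower, beside 16.2%. Sites with at least 10 reads in one library and no row in the other were counted as gained or lost. Of 623 sites, 36 (5.78%) were gained, beside 4.02% of all sites, and 19 (3.05%) were lost, beside 4.35%. Treated against undifferentiated cells, 60 of 358 (16.8%) were higher, beside 19.2%, and 64 (17.9%) lower, beside 17.8%. A further 33 sites were gained (5.30%, beside 5.5%) and 29 lost (4.65%, beside 5.84%). Treated against untreated cells, 30 of 373 (8.04%) were higher, beside 8.84%, and 29 (7.77%) lower, beside 6.23%. Here 9 sites were gained (1.44%, beside 2.55%) and 11 lost (1.77%, beside 2.61%).

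**Figure D5:**
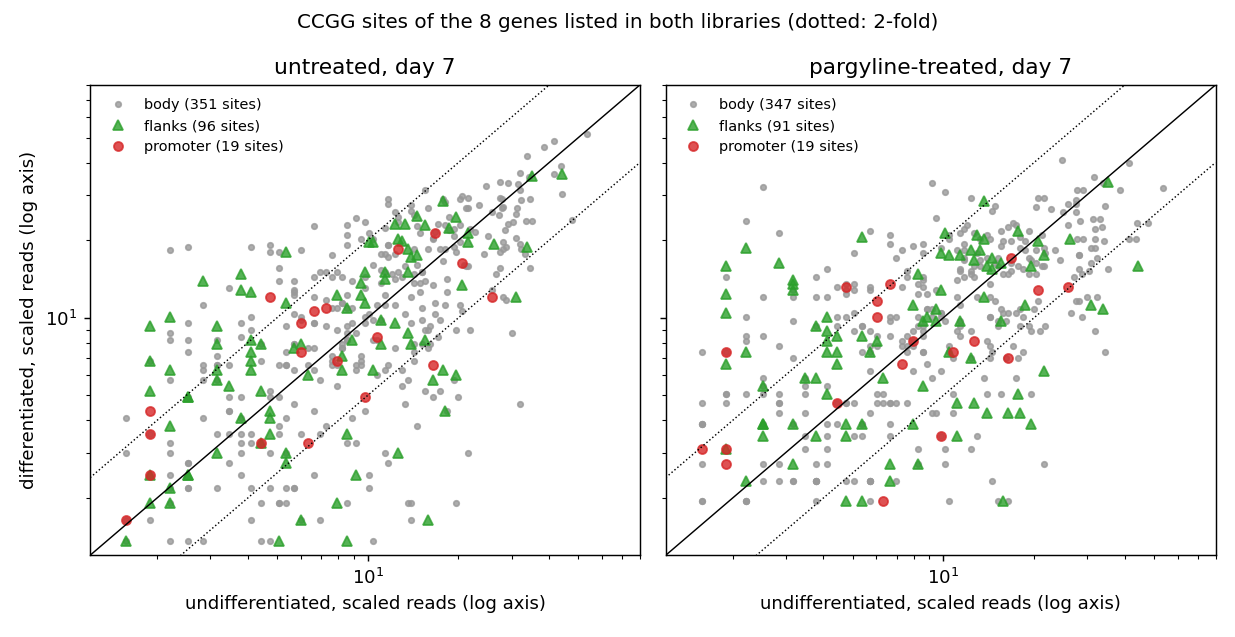
Scaled reads of each CCGG site of the 8 genes in undifferentiated cells (horizontal log axis) and in untreated or treated cells (vertical log axis), for sites listed in both libraries. Circles are promoter sites, triangles flank sites and dots body sites, the solid line marks equal values and the dotted lines 2-fold. Points lie on both sides of the equal line, and most stay between the dotted lines.

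The calls of single genes are few. Untreated against undifferentiated cells, where 16.2% of all sites were higher, 16.2% lower, 4.02% gained and 4.35% lost, Tet1 had 13 sites higher and 4 lower of 53, and 7 gained and 5 lost of 93. Tet2 had 6 higher and 3 lower of 29, with 6 gained and 0 lost of 52. Uhrf1 had 2 higher and 7 lower of 27. Treated against undifferentiated cells, where 19.2% of all sites were higher, 17.8% lower, 5.5% gained and 5.84% lost, the numbers higher and lower were closer to each other, with 12 higher and 11 lower of 52 for Tet1, 3 and 4 of 28 for Tet2, which gained 6 of 52 sites and lost 0, and 5 and 4 of 25 for Uhrf1. Untreated against undifferentiated cells, the numbers higher and lower were 12 and 9 of 75 for Dnmt3a, 11 and 11 of 85 for Tet3, 8 and 10 of 56 for Dnmt1, 4 and 4 of 25 for Dnmt3b and 6 and 5 of 29 for Dnmt3l. Flank sites of Dnmt1 (441, 603 and 388 reads in all), Tet1 (245, 277 and 176), Dnmt3a (560, 647 and 411) and Uhrf1 (479, 509 and 371) had log2 ratios between -0.18 and 0.24.

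By region, each count stands beside the share of all sites of that region. Untreated against undifferentiated cells, 1 of 14 promoter sites was higher (16.9% of all promoter sites) and 2 were lower (16.3%), while 3 of 44 were gained (7.23%) and 0 lost (2.81%). Of 291 body sites 49 were higher (15.7%) and 40 lower (16.2%), and of 450 body sites 22 were gained (3.8%) and 15 lost (4.22%). Of 74 flank sites 12 were higher (15.3%) and 11 lower (16.6%), and of 129 flank sites 11 were gained (4.24%) and 4 lost (4.14%). The gained promoter sites were the Tet2 pair and the Dnmt3l site.

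Treated against undifferentiated cells, 2 of 14 promoter sites were higher (23.5%) and 3 lower (15.9%), while 5 of 44 were gained (11.9%) and 0 lost (3.04%). Of 276 body sites 44 were higher (18.6%) and 44 lower (17.9%), with 23 gained (4.96%) and 23 lost (5.74%). Of 68 flank sites 14 were higher (18.9%) and 17 lower (18.2%), with 5 gained (6.02%) and 6 lost (5.34%). Treated against untreated cells, 2 of 14 promoter sites were higher (15.6%) and 1 lower (6.17%), with 0 gained (6.53%) and 0 lost (2.94%). Of 285 body sites 20 were higher (8.36%) and 20 lower (6.25%), with 9 gained (2.23%) and 10 lost (2.62%). Of 74 flank sites 8 were higher (9.29%) and 8 lower (6.4%), with 0 gained (3%) and 1 lost (2.58%).

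Treated and untreated cells differ in pargyline, but with 1 library of each the treatment cannot be told apart from differences between cultures or libraries. At the promoters, the treated sums were higher for Tet2, Tet3, Dnmt3a and Dnmt3b, by the ratios given above. They were 1.19-fold higher for Dnmt3l (log2 ratio 0.25, -0.10 to 0.59), and 0.91-fold for Uhrf1 (-0.14, -0.59 to 0.31), 0.86-fold for Tet1 (-0.21, -0.51 to 0.09) and 0.70-fold for Dnmt1 (-0.51, -1.09 to 0.05). For Tet3, Dnmt3a and Dnmt3b the intervals excluded 0, and for Tet2 they did so only under part of the alternatives. Promoters in general were higher too. Over 11635 promoters with reads in both libraries and at least 20 in 1, the median log2 ratio was 0.28 and 20.1% were at least 2-fold higher. Among these, Tet2, Tet3, Dnmt3a and Dnmt3b lay at the 80.2, 85.4, 85.4 and 98.6 percentiles. The Tet2 interval included this median. With 4 untreated reads at unlisted sites, those of Dnmt3a (0.02 to 1.24) and Dnmt3b (0.12 to 2.045) did as well. In the gene bodies the intervals excluded 0 for Tet2 (log2 ratio -0.27, -0.39 to -0.15), Dnmt1 (-0.15, -0.24 to -0.06) and Dnmt3l (0.25, 0.03 to 0.46), the last of which turned to -0.13 with scaling to mapped reads. A Tet1 intron site at chr10:62895733 had 48, 40 and 5 reads, the lowest ratio (log2 ratio -2.49, -4.19 to -1.15).

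The widest span of log2 (scaled promoter sum + 1 read) over the libraries was 5.42 for Tet2, against 4.995 for Dnmt3b, and rests on sums of 0, so the order of these genes was not established. By Euclidean distance over the log2 scaled promoter sums in the 3 libraries, the genes nearest to Tet2 were Zbtb34 (0, 24 and 35 reads), Chaf1a (0, 23 and 34), Rras2 (0, 25 and 35), Carmil3 (0, 25 and 33) and Polq (0, 23 and 35). The distances ran from 0.04 to 0.07.

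Other genes of the pathway were taken from 4 lists. Promoter sums were compared where both libraries had reads and 1 had at least 20. Over all genes, 15.7% of these were at least 2-fold higher and 8.15% lower in untreated than in undifferentiated cells, and 29.2% and 6.6% in treated cells. Treated against untreated cells, the shares were 20.1% and 3.6%. Of 261 promoter motifs of the recruiters and regulators of the writers and erasers, 7.28%, 14.2% and 14.9% were listed. Over all genes the shares were 15.97%, 21.7% and 25.5%. Of the 16 genes found, 8 had no listed motif in undifferentiated cells, and 6 could be compared between untreated and undifferentiated cells. Usp7 was compared only through its day 7 reads. Among these 6 genes, 3 were higher in untreated cells and none lower. These were Kdm2b, which binds unmethylated CpG-dense DNA (30, 120 and 120 reads, log2 ratios 1.79 and 2.295), Nsd1, a histone H3K36 methyltransferase (59, 161 and 99 reads, 1.23 and 1.04), and Usp7, a deubiquitinase that stabilises UHRF1 and DNMT1 (14, 39 and 30 reads, 1.26 and 1.39). Among genes of methyl donor and cofactor metabolism, 2 of 7 were higher and 1 lower in untreated cells. The citrate cycle enzyme Idh3a had 26, 73 and 45 reads, and Mat2b, a subunit that regulates methionine adenosyltransferase, was lower with 33 and 16 reads in undifferentiated and untreated cells. Of the methyl-CpG readers, none of 6 was past 2-fold in untreated cells. Mbd3 was just under this limit, with 82 reads in undifferentiated and 190 in untreated cells (log2 ratio 0.999, 0.62 to 1.39). In treated cells 2 readers were higher, Uhrf2 (22, 27 and 50 reads) and Zbtb4 (94 and 175 reads in undifferentiated and treated cells). Treated against untreated cells, Uhrf2 and, among the regulators, the H3K9 methyltransferase Ehmt2 (8 and 28 reads) were the list members past 2-fold, both higher. Of the genes of base excision and deamination, 1 of 7 was higher in untreated than in undifferentiated cells, the cytidine deaminase Apobec1 (14, 39 and 37 reads). It was compared only through its day 7 reads. The median log2 ratios of the compared list genes in untreated cells were 0.15 (readers), 0.28 (base excision and deamination), 1.01 (recruiters and regulators) and 0.40 (metabolism). Over all genes compared in this way the median was 0.14.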

How the data were processed

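Genomic DNA of 3 samples was digested with FspEI and the fragments sequenced. Per the labels and the study's methods, the authors trimmed and quality-filtered the reads, mapped reads with an enzyme site to GRCm38 (Bowtie2 2.3.3, in the submitters' processing notes), counted uniquely mapped reads per site and removed sites with fewer than 5 reads. The authors deposited the counts and an RPM value, the count divided by all reads mapped in that sample. Of the 865 motifs, 28 have a 32-base fragment that occurs more than once among CCGG fragments of the genome, and 25 of these were never listed. The lists carry the tag noDups, while the methods describe only the summing of duplicate sites, and whether PCR copies were removed is not settled by these sources. Each state had 1 library.

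CCGG rows were assigned to promoter, body and flanks with GENCODE M21 basic transcripts. CCAGG and CCTGG rows were not used. Scaled reads are counts per 10000000 CCGG reads. Of the 623 sites, 58 lie within 32 bases of another listed site, 10 are not CCGG in the reference and 76 lie in another annotated gene. Of 129 flank sites, 16 lie within 1 kb of the start of another gene. Shares have Clopper-Pearson intervals, sums Poisson intervals and ratios exact conditional intervals. The genes, lists and alternatives were chosen with earlier results of these data known. Named sites were all promoter sites of a gene with up to 5, else the deepest 3, the deepest body and flank sites, and the 3 largest ratios, gains and losses per comparison. Sites chosen otherwise are marked or stand beside these. Of 18 recruiters and regulators, 16 matched a gene name. The values of 1 gene of the lists are not reported here. The region assignment and intervals were tested on simulated data. Intervals were computed with SciPy 1.17.1 and plots with matplotlib 3.10.9, under Python 3.11.15 with pandas 2.3.3 and numpy 2.4.6.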

Additional observations from a re-analysis of the deposited data

Results flagged for a closer look

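The body of Tet2 was flagged because the day 7 libraries differed from undifferentiated cells in opposite directions, with log2 ratios of 0.13 (untreated) and -0.13 (treated), with counting intervals of 0.02 to 0.25 and -0.27 to -0.005. The first interval included 0 with the median ratio scaling and with 4 reads at each site listed only in another library. The second did so with sites within 32 bases counted once, with 4 reads at such sites and without sites over 10000 reads. Scaled to mapped reads, both were below undifferentiated cells (-0.18 and -0.83). The difference was not tested, since each state has 1 library.

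The CCAGG rows, which the comparisons above do not use, were flagged because the treated list held 638 CCAGG sites with 8714 reads in the windows of the 8 genes, against 210 sites with 3522 reads in each of the other lists. The CCTGG rows numbered 209 with 3703 reads in all 3 lists. Equal totals in separate libraries leave it unclear whether these rows hold each library's own counts, and no difference is read from them.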

How the results depend on the processing

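No paired analysis was possible because each state had 1 library, and for the same reason no replicate could be left out. Depth limits what an unlisted site means, since it can hold up to 4 reads, and sites read from overlapping fragments are not independent. Of the alternatives for results over all 8 genes, 83 kept a value within its counting interval or, for counts, within 1.5-fold, 52 moved it further, and 6 turned the sign of a log2 ratio whose interval excluded 0. For single genes these numbers were 374, 59 and 13. Counting ratios whose interval included 0 as well, the sign turned in 10 of 60 alternatives for all 8 genes and in 57 of 446 for single genes. In a further 5 and 18 the sign stayed and the interval came to include 0. Of the 13, flanks of 5 kb gave -0.3968 for Dnmt3b and 0.07329 for Tet3 (treated against undifferentiated) and -0.06142, -0.181 and -0.1196 for Dnmt3l in the 3 comparisons. Scaling to mapped reads gave -0.1134, -0.2831 and -0.1697 for the Dnmt3l flanks, -0.1296 for the Dnmt3l body (treated against untreated), -0.1846 for the Tet2 body and -0.08116 for the Dnmt1 flanks (untreated against undifferentiated), and -0.3384 for the Tet2 flanks (treated against undifferentiated). The Dnmt3l promoters upstream of the starts alone gave -0.4358 in untreated cells. Values from fragments found once, reference motifs alone, scaling without sites over 10000 reads and promoters of 500 bases on each side stayed within these limits in the results over all 8 genes for which they were run. Where a cause is not given by the construction of the alternative, the cause was not tested.

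A cutoff of 10 reads lowered the listed shares of promoters to 12.5% (untreated) and 11.88% (treated), which turned their order, of bodies to 60.63%, 61.57% and 59.51%, and of flanks to 49.7%, 55.62% and 49.11%. All annotated transcripts gave promoter shares of 29.44%, 35.5% and 36.8%. Thinning to the smallest library gave 67.35% for bodies in untreated cells, and flanks of 5 kb gave 69.23% in undifferentiated cells. Scaling to mapped reads gave log2 ratios (untreated and treated against undifferentiated, treated against untreated) of -0.1424, -0.2846 and -0.1422 for promoters, -0.326, -0.7503 and -0.4244 for bodies and -0.1963, -0.6233 and -0.427 for flanks. Promoters upstream of the starts alone gave -0.4061 and -0.06286, and 4 reads at each promoter site listed only in another library gave 0.2326 in treated cells. Scaling to the median ratio gave -0.08292 and -0.1281 for bodies and 0.04672 for flanks in untreated cells. Flanks of 5 kb gave -0.00882 in treated cells.

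Sites past 2-fold, higher and lower, became 35 and 82, 25 and 138, and 16 and 68 with scaling to mapped reads, and 112 and 90, 97 and 105, and 60 and 73 at 1.5-fold. Without a minimum of 20 reads, 53 sites were higher in treated than in untreated cells. Gained and lost sites became 20 and 29 (untreated against undifferentiated) and 20 and 6 (treated against untreated) after thinning. They became 74 and 42, 91 and 51, and 59 and 51 at 5 reads, and 9 and 6, 8 and 12, and 0 and 6 at 20 reads.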
